A study of Mus musculus with 84 samples.

Results

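The nuclear genes for the subunits of the mitochondrial respiratory chain and ATP synthase were followed at their promoters in 84 histone mark libraries of mouse adipocyte nuclei. The members were the protein-coding genes of the GENCODE annotation of GRCm38 whose symbols start with Nduf followed by a, b, c, s or v and a number, with Uqcr, with Cox4 to Cox7 or with Atp5, together with Sdha, Sdhb, Sdhc and Sdhd. The muscle gene Cox7a1, the Ndufaf assembly factors and pseudogenes were left out. This gave 81 of 21851 annotated genes, with 80 symbols because Atp5o has 2 entries. Assigned by the start of the symbol alone, complex I contributed 37 genes, complex II 4, complex III 8, complex IV 14 and complex V 18.

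The respiratory chain of the inner mitochondrial membrane passes electrons from NADH, through complex I, or from succinate, through complex II, to complex III and then to oxygen at complex IV. Complexes I, III and IV pump protons, and complex V, the ATP synthase, uses the gradient to make ATP. Most subunits are encoded in the nucleus and only a few in mitochondrial DNA, so nuclear promoters must be used together with the mitochondrial genome. In fat cells the chain supplies ATP for lipid synthesis and storage. At promoters, H3K4me3 and H3K27ac accompany active transcription, H3K4me1 is typical of enhancers and of the flanks of active promoters, and H3K27me3 is laid down by polycomb proteins at silenced genes.

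Adipocyte nuclei came from the epididymal fat of AdipoERCre x NuTRAP mice, whose strain the labels spell C576BL6 while the methods give C57BL/N. In these mice a tamoxifen-inducible Cre driven by the adiponectin promoter switches on a biotin tag on the nuclear membrane of adipocytes. All groups, controls included, carried both transgenes and received tamoxifen, and cells other than adipocytes could enter only if they were tagged or carried along in the pull-down. C mice (18 weeks old) and CC_s mice (26 weeks) were chow-fed controls. The H group (age 18 weeks) received high-fat diet during 12 weeks, and HC mice were fed likewise and then kept on chow for 8 weeks, to 26 weeks of age. CC_l (31 weeks) and CCC (39 weeks) were the older chow controls, HH mice were given the high-fat diet for 25 weeks (age 31 weeks), and HHC mice spent another 8 weeks on chow (age 39 weeks). Per the methods, controls first received a low-fat chow. During the weight-loss period CC_s and CCC received the same standard chow as HC and HHC. The comparisons of H with C and of HH with CC_l address obesity, and those of HC with CC_s and of HHC with CCC address what remains after weight loss. There were 21 H3K4me3, 21 H3K27ac, 22 H3K4me1 and 20 H3K27me3 libraries, with 3 libraries in 20 of the 32 groups and 2 in the other 12.

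Each library was given as a list of peaks, called by the authors in that library alone. The lists held 11249 to 41976 peaks for H3K4me3, 12174 to 41989 for H3K27ac, 14486 to 40682 for H3K4me1 and 21809 to 46397 for H3K27me3. A promoter was the window of 2000 bp on either side of a transcription start site (TSS), and it was marked when a peak overlapped it. A promoter without a peak did not reach the caller's threshold in that library and is not shown to lack the mark. Titles, which were used, disagreed with the treatment field in 4 H3K4me3 libraries, namely replicates 2 and 3 of HH, replicate 2 of CC_l and replicate 3 of CCC. The third replicate of H stood apart in H3K4me3, with 9122 marked promoters of all genes, and in H3K27ac, with 4538, and the third CCC replicate did so in H3K27ac, with 3865. Of 10 adipocyte markers 7 to 10 carried H3K4me3 per library, so most defining markers of the labelled cell type were present in each. The count was 7 to 10 in HHC, 9 to 10 in H and HC, and 10 in the other groups. For H3K27ac it was 7 to 10 in HH, 8 to 10 in HHC, 9 to 10 in HC and 10 in the other groups. Of 10 macrophage markers, 3 carried H3K4me3 in each C library and 9, 9 and 0 in the H libraries, 3 in each CC_l and 9 in each HH library, 4 and 2 in CCC and 9 in each HHC library. In CC_s it was 0 to 2 and in HC 1 to 6. For H3K27ac the counts were 2 in C, 0 to 7 in H, 1 to 2 in CC_s, 0 to 6 in HC, 2 in CC_l, 4 to 7 in HH, 1 to 5 in CCC and 3 to 9 in HHC. In C, Lyz2, Trem2, Adgre1, Mrc1 and Itgam were without a peak in all libraries. Of 7 endothelial markers, 2 to 5 carried H3K4me3 in C, 0 to 7 in H, 3 to 6 in CC_l and 7 in both HH libraries, and of 6 lymphocyte markers 0 did in CCC and 4 to 6 in HHC. Of 6 adipocyte progenitor markers 5 carried it in C, 0 to 5 in H, 4 in CC_l and 5 in HH, and of 5 mesothelial markers 1 to 3 in C and 0 in H. The part of these other cells in the comparisons below was not tested.

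Many respiratory chain genes start next to another gene. A TSS of another gene lay within 1000 bp for 27 of the 81 members (33.3%), on the other strand for 26 of them, against 2589 of 21851 genes (11.8%) in all and 14 of 80 cytosolic ribosomal protein genes (17.5%). Several neighbours also serve mitochondria or protein synthesis. Ndufs1, a core iron-sulfur subunit of complex I, starts 3 bp from Eef1b2, a translation elongation factor, and Ndufa7 starts 10 bp from Rps28. Ndufs6 starts 29 bp from Mrpl36 and Ndufb5 76 bp from Mrpl47, both genes for mitochondrial ribosomal proteins. Sdhd, a membrane anchor of complex II, starts 98 bp from Timm8b, which takes part in protein import. Atp5j, of the ATP synthase stalk, starts 379 bp from Gabpa, which encodes a transcription factor of respiratory genes. Peaks at these promoters cannot be assigned to 1 of the paired genes.

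Promoter sequences of RefSeq on GRCm38.p6, from 250 bases before to 50 bases after the start, were matched for 63 of the 80 symbols and for 16515 genes in all. Among those without an entry were Ndufs1, Sdhc, Ndufa4l2, Uqcrq, Atp5s, Atp5mpl, Uqcrb, Cox6c, Ndufb9, Ndufa2, Atp5a1, Cox4i2, Atp5f1, Uqcrc2, Cox6a2 and Cox4i1. Exact matches on either strand to the core motif of 6 factors were counted, as a description of the letters and not of binding. The NRF1 core GCGCATGCG was present in 8 members (12.7%) and in 2.73% of all promoters, in Atp5g2, Atp5k, Atp5l, Cox6a1, Ndufa11, Ndufa8, Uqcr11 and Uqcrc1. The YY1 core AAGATGGCG was present in 7 members (11.1%) and 2.25% of all promoters, in Atp5j, Atp5j2, Ndufa9, Ndufc1, Ndufs4, Ndufs6 and Ndufs7. The ERR core TCAAGGTCA was found in Atp5g3 and Sdhd only (3.17%, all promoters 0.388%). The CREB core TGACGTCA occurred in 4 members (6.35%, all promoters 2.64%), the GABP core CCGGAAGT in 4 (6.35%, all 5.94%) and the SP1 core GGGGCGGGG in 10 (15.9%, all 17.9%). At least 1 of the 6 was held by 30 members (47.6%) and by 28% of all promoters. The median GC content was 58.3% in members and 56.8% in all promoters, and the median number of CpG dinucleotides in the 300 bases 19 and 14.

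The promoters of 7 members on which the results below turn are printed 5′ to 3′ on the strand of the gene, with motif matches in capitals. Ndufa5 (chr6:24527477-24527776, minus strand), whose H3K4me3 height was lower in H, and Ndufb8 (chr19:44555393-44555692, minus strand) and Atp5o (chr16:91931581-91931880, minus strand), which were without H3K27ac peaks in H, held none of the 6 motifs, and neither did Atp5c1 (chr2:10080461-10080760, minus strand), which had the widest H3K4me3 peaks. Cox6a1 (chr5:115348909-115349208, minus strand) holds the NRF1 core on both strands in overlapping positions 89 and 90 of the 300 bases, Ndufa9 (chr6:126849095-126849394, minus strand) the YY1 core at position 280, and Ndufa10 (chr1:92473709-92474008, minus strand) the SP1 core at position 121, on the opposite strand, and the CREB core at position 184. The last 3 took part in the differences of H3K4me1. The Ndufa5 stretch belongs to a start 44 bp from an annotated one and does not hold the first TSS of Ndufa5, at 24528013.
Ndufa5: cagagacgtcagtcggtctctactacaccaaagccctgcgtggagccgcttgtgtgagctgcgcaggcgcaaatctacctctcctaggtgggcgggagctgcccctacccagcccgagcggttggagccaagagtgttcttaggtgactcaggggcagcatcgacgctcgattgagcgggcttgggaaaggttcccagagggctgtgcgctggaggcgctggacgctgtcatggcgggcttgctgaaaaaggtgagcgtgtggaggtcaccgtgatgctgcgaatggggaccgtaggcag
Ndufb8: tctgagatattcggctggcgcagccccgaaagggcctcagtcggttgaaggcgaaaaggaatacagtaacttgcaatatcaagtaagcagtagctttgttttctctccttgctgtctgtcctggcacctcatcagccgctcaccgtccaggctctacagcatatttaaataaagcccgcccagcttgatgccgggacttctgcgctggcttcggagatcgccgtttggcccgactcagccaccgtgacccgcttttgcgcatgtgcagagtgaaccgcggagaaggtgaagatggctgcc
Atp5o: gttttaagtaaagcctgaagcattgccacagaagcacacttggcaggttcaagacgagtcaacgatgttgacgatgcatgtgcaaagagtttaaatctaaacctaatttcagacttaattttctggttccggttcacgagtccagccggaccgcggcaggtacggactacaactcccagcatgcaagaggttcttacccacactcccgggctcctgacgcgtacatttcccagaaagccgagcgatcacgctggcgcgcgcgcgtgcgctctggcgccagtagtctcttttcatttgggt
Atp5c1: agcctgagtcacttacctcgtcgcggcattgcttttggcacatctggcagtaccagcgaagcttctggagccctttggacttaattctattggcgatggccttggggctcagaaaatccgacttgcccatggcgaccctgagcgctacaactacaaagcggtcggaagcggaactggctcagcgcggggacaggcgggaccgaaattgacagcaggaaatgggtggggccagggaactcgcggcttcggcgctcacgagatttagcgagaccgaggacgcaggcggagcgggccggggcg
Cox6a1: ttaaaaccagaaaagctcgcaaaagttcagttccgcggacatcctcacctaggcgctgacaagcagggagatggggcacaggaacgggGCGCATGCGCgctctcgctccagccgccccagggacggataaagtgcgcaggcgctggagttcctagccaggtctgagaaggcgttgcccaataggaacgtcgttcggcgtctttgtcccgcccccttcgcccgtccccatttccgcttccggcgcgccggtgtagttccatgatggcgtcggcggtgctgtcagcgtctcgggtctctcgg
Ndufa9: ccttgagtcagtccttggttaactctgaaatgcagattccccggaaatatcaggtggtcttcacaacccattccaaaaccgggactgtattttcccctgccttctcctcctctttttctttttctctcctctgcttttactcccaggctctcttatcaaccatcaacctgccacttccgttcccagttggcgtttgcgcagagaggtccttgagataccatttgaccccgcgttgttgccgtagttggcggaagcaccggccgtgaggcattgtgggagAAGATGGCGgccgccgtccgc
Ndufa10: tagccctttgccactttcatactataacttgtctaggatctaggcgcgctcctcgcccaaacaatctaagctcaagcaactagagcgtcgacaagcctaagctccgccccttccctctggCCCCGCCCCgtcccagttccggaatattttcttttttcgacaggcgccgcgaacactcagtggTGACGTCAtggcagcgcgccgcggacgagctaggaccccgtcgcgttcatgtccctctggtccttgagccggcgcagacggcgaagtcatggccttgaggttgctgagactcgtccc

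Respiratory chain promoters carried H3K4me3 in nearly every library and H3K27ac in most. The share of members with an H3K4me3 peak was 93.8% ± 2.66 (SD, n = 21 libraries; 69 to 79 of 81 genes) against 57.7% ± 6.69 of all promoters, and it was above the share of all promoters in 21 of 21 libraries. For H3K27ac it was 81.2% ± 13 (n = 21; 44 to 76 genes) against 40.7% ± 11.5, again higher in 21 of 21. H3K27me3 was nearly missing, at 3.09% ± 1.94 (n = 20; 1 to 6 genes) against 18.4% ± 4.48, and the share was lower than that of all promoters in 20 of 20 libraries. H3K4me1 had no fixed relation, at 33.5% ± 26.7 (n = 22; 1 to 63 genes) against 24.0% ± 13.8, higher in 13 libraries and lower in 9. A total of 72 members carried both active marks in most libraries, and 66 of these had no H3K27me3 peak in any.

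**Figure D1:**
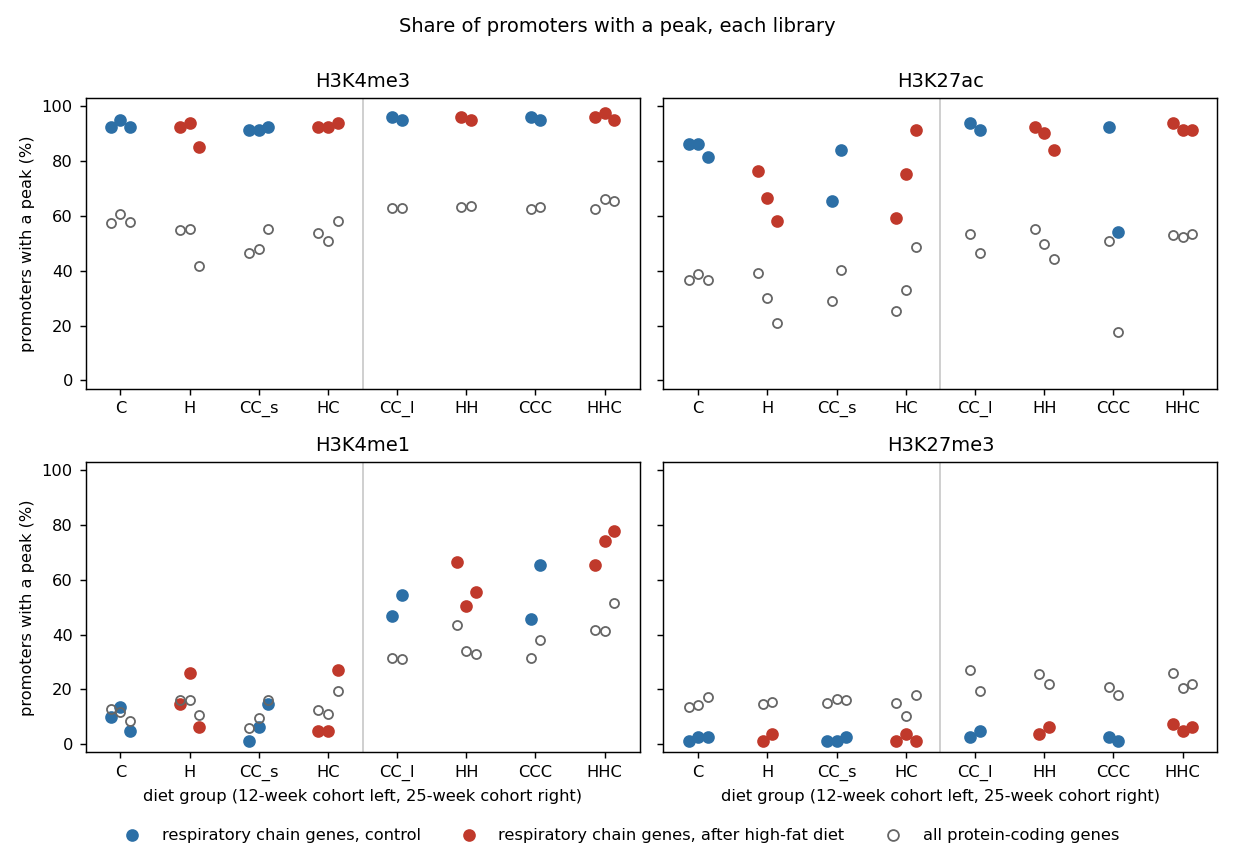
Share of promoters with a peak (%, vertical axis) in each library of the 8 diet groups, for each mark. Respiratory chain genes are set beside all protein-coding promoters of the same library, and their H3K4me3 share stayed between 85.2% and 97.5% while their H3K4me1 share ran from 1.23% to 77.8%.

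By complex, H3K4me3 was present in every one of the 21 libraries at 33 of 37 genes of complex I, 4 of 4 of complex II, 7 of 8 of complex III, 8 of 14 of complex IV and 16 of 18 of complex V. In all, 68 members (84%) were marked in every library, against 39.2% of all promoters. H3K27ac was found in every library at 26 members (32.1%) against 8.67% of all promoters. No member carried H3K4me1 in all 22 libraries, against 342 of all genes, and 7 members carried it in none. H3K4me1 separated the cohorts: 1 to 22 members (median 6.5) were marked per library of the 12-week cohort and 37 to 63 (median 49) per library of the 25-week cohort, without overlap. All promoters did the same, with 1331 to 4209 and 6797 to 11241 marked. Cohort, age and library preparation cannot be told apart here.

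**Figure D2:**
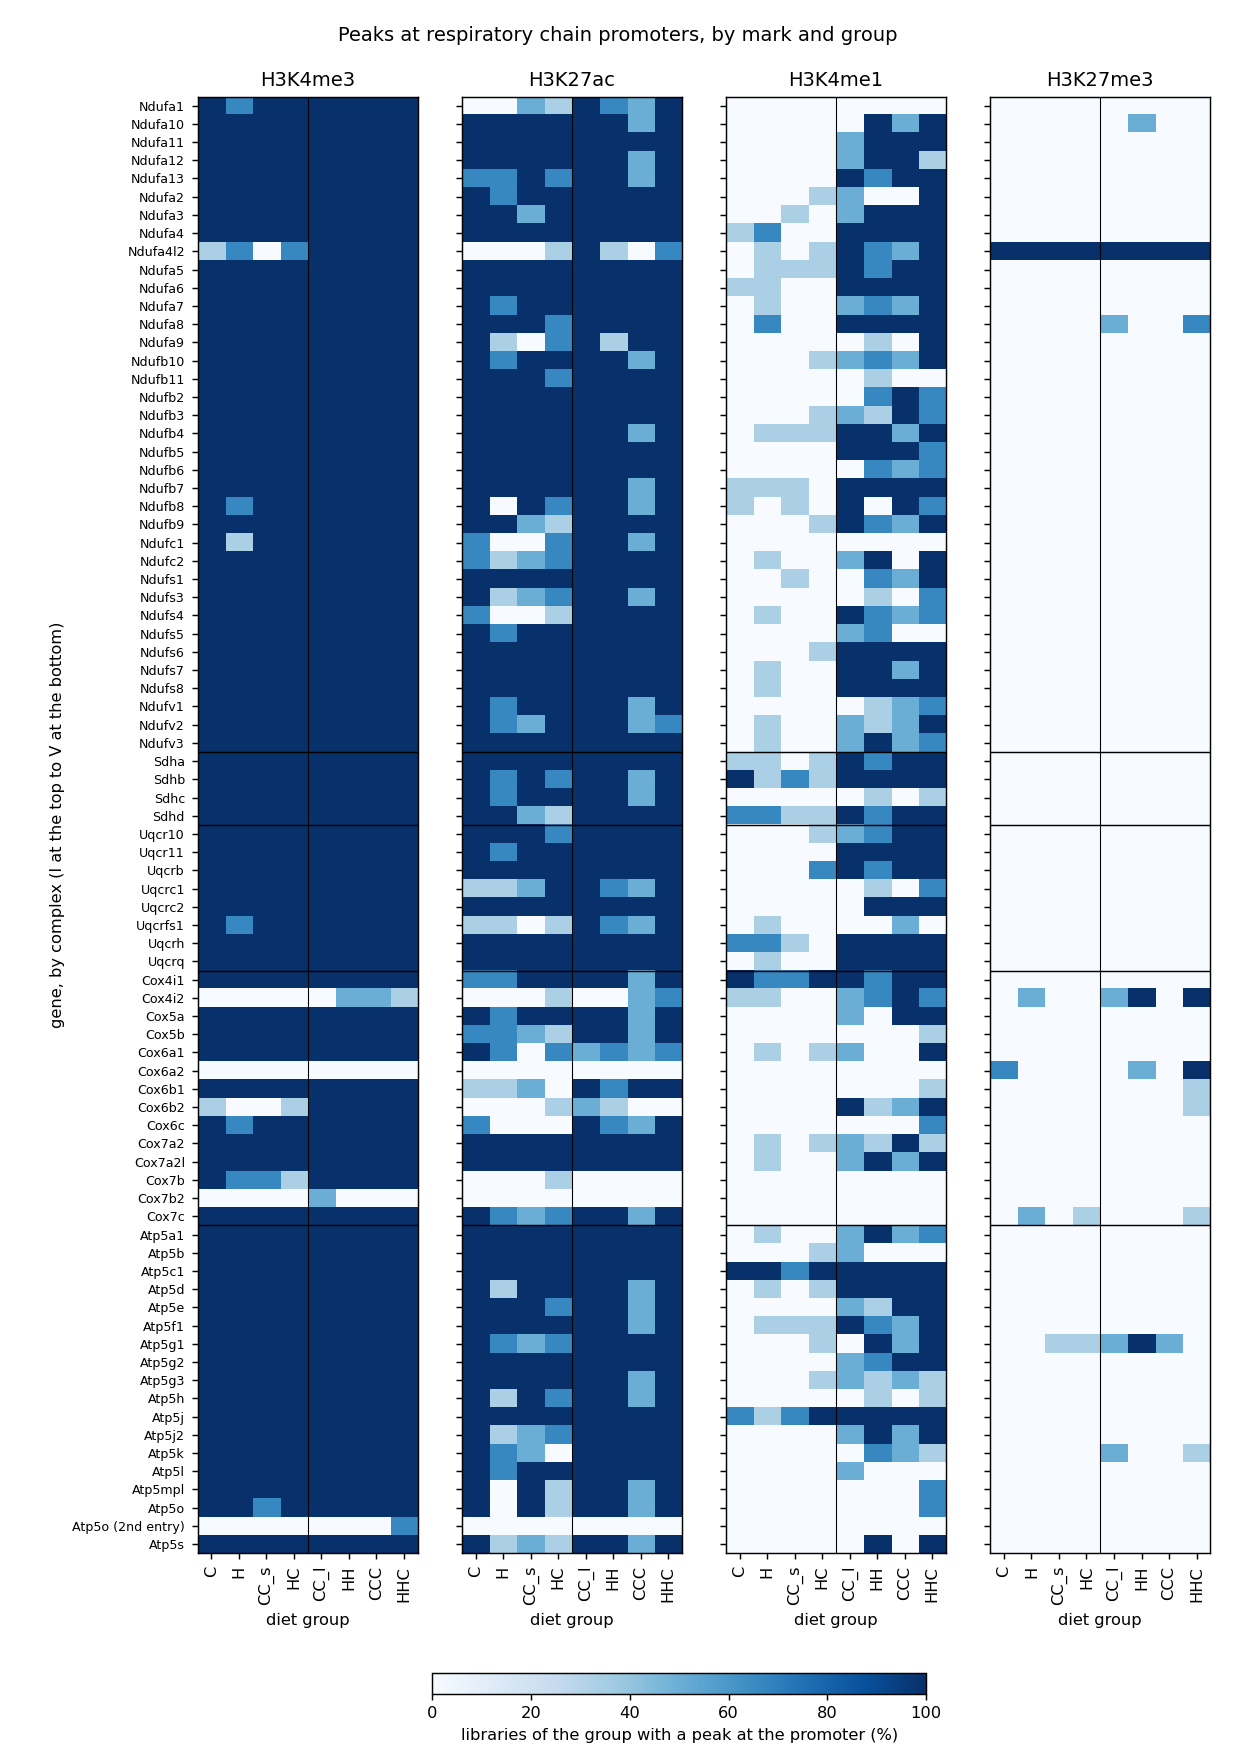
Share of the libraries of each diet group (columns) in which a peak overlapped the promoter of 80 of the 81 respiratory chain genes (rows, by complex from I at the top to V at the bottom), for 4 marks, from white (0%) to dark blue (100%). Dark columns for H3K4me3 are interrupted mainly in complex IV, and H3K27me3 fills 1 row, that of Ndufa4l2.

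None of the 5 members of restricted or induced expression carried H3K4me3 in every library. The other exceptions were not of this kind, among them Cox6c, Ndufa1, Ndufb8 and Uqcrfs1, marked in 20 of 21 libraries, and Ndufc1, marked in 19. Cox6a2, the isoform of heart and skeletal muscle (chr7:128205435-128206387, minus strand), had H3K4me3 in 0 of 21 and H3K27ac in 0 of 21 libraries, and H3K27me3 in 6 of 20. Cox7b2, a testis isoform (chr5:71442824-71548205, minus strand), had H3K4me3 in 1 library, of 698 bp in CC_l replicate 1, and no peak of another mark. Cox4i2, an isoform of lung that is induced by low oxygen (chr2:152754173-152765037, plus strand), had H3K4me3 in 3 of 21, H3K27ac in 4 of 21 and H3K27me3 in 7 of 20 libraries. Its ubiquitous counterpart Cox4i1 was marked by H3K4me3 in all 21. Cox6b2, another testis isoform, had H3K4me3 in 11 of 21 libraries, including all 9 of the 25-week cohort. The second annotated entry of Atp5o, whose start lies 4705 bp from the first, had H3K4me3 in 2 of 21 libraries, both of HHC.

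Ndufa4l2, a relative of Ndufa4 that is induced by low oxygen (chr10:127514967-127517154, plus strand), was the only member with H3K27me3 in all 20 libraries. Its H3K27me3 peaks were 212 to 3940 bp wide in the 12-week cohort and 3384 to 8852 bp in the 25-week cohort, and these ranges overlapped only between 3384 and 3940 bp. The median width over all promoters with H3K27me3 also differed, at 416 to 2209 bp per library in the 12-week cohort and 1502 to 3261 bp in the 25-week cohort. It also carried H3K4me3 in 14 of 21 libraries, among them all 9 of the 25-week cohort (801 to 5280 bp), and H3K27ac in 6 of 21. Since these are populations of nuclei, both marks at a promoter can come from different nuclei. Atp5g1, which encodes the c subunit of the rotor ring, had H3K27me3 in 6 of 20 libraries beside H3K4me3 in all 21. Cox7c and Ndufa8 had H3K27me3 in 3 libraries each, Atp5k in 2, and Ndufa10, Cox6b2 and Cox6b1 in 1 each. The remaining 71 members had it in none.

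Cox7b, an X-linked subunit of complex IV that was singled out after its values were seen, carried H3K4me3 in 17 of 21 libraries but H3K27ac in 1 of 21, of 633 bp in HC replicate 3. Its promoter had 43.3% GC and 5 CpG dinucleotides. The median CpG number was 19 (8 to 39) in the 55 with H3K4me3 in every library and 19.5 (5 to 31) in the other 8 with sequence. These 8 include Uqcrfs1, Ndufa1 and Ndufb8, marked in 20 of 21 libraries. Cox7b2 and Cox6b2, with H3K4me3 in 1 and 11 of 21, had 10 CpG dinucleotides each, while Ndufc2, marked in all 21, had 8. Cox6a2, Cox4i2 and Ndufa4l2 had no sequence, so these medians cannot show whether CpG number separates the weakly marked members.

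By the peaks as deposited, H3K4me3 peaks at these genes were slightly wider than at other marked promoters. With equal numbers of peaks or a stricter threshold the mean ratio came close to 1, as given in the closing section. The median width over members divided by that over all marked promoters of the same library was 1.11 ± 0.0683 (SD, n = 21), from 0.988 to 1.3, and exceeded 1 in 20 of 21 libraries. For H3K27ac it was below 1 in 15 of 21. Complexes differed, with a mean ratio for H3K4me3 of 1.25 ± 0.154 in complex II, 1.23 ± 0.122 in V, 1.19 ± 0.159 in III, 1.10 ± 0.0776 in I and 0.952 ± 0.154 in IV. Ribosomal protein genes had a ratio of 1.19 ± 0.0730. Peaks reached further into the gene than upstream. At the 42 members with a single start region and no close neighbour, H3K4me3 extended a median of 727.5 bp upstream and 1537 bp downstream of the TSS, further downstream in 21 of 21 libraries, and covered the TSS at 95% of them. All promoters of that kind gave 762 bp, 1317 bp and 86.2%. H3K27ac at members reached 592 bp upstream and 1037 bp downstream.

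The widest peak was at Atp5c1, the gamma subunit of the central stalk (chr2:10056016-10080510, minus strand), with a median of 5363 bp over 21 libraries (1761 to 7654 bp). Its TSS lies 114 bp from that of Kin. The narrowest in complex V was Atp5e, the epsilon subunit, at 1527 bp (515 to 3205 bp). In complex I the range ran from Ndufb3 at 3955 bp to Ndufa3 at 1693 bp, and in complex II from Sdhb, the iron-sulfur subunit, at 4006 bp to Sdhc, a membrane anchor, at 1870 bp. In complex III it ran from Uqcrh, the hinge protein, at 4361 bp to Uqcrc1, a core protein, at 1834 bp, and in complex IV from Cox4i1 at 3450 bp to Cox7c at 1831 bp. Among members marked in every library, the 26 that share a start region had a median width of 2998 bp (1826 to 5363 bp) and the 42 others 2433 bp (1527 to 4163 bp). The order of the members by width was kept between the cohorts, with Spearman's rho of 0.784 and Pearson's r of 0.759 over 68 genes, against 0.792 and 0.809 over all 8575 promoters marked in every library. These are correlations across genes, which are not independent and share libraries and depth.

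By the peaks as deposited, no respiratory chain gene was called as gained or lost for H3K4me3 with diet. Gained means that all libraries of the diet group, and none of its control group of the same age, had a peak at the promoter, and lost means the opposite. With 3 or 2 libraries a group an exact two-sided permutation test cannot give a p below 0.1, so these calls carry no p. For H3K4me3, 0 of 77 members marked in H or C were called, where 2.70% of all promoters were. The counts were 0 of 77 in HC against CC_s (0.551% of all promoters), 0 of 79 in HH against CC_l (2.61%) and 0 of 79 in HHC against CCC (2.51%). The rule could not call the 68 members with H3K4me3 in every library, 84% of members against 39.2% of all promoters. These counts of 0 therefore cannot show that the mark was stable. A few calls appeared with other peak settings, as given in the closing section.

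H3K27ac was lost at 3 members in H by the peaks as deposited, but at 0 with equal numbers of peaks taken from each library, and at none in the other comparisons as deposited. In H against C, 3 of 73 members lost the mark, beside 3.94% of all promoters, so the share of members was near the background. With a stricter threshold 1 member was lost in H, which was not among these 3, and with a peak required over the TSS 4 were, these 3 included. Atp5mpl, a small membrane subunit of the ATP synthase (chr12:111961375-111966977, minus strand), had H3K27ac peaks of 1421, 1398 and 1207 bp in C and none in H. Atp5o, which joins the catalytic head to the stalk (chr16:91925214-91931687, minus strand), had 1666, 1245 and 852 bp in C and none in H. Ndufb8, in the membrane arm of complex I (chr19:44548572-44555440, minus strand), had 1323, 1666 and 1302 bp in C and none in H. All 3 had a peak in both CC_s libraries, and after weight loss Atp5mpl and Atp5o had one in 1 of 3 HC libraries (828 and 768 bp in replicate 3) and Ndufb8 in 2 of 3 (821 and 878 bp).

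The same 3 promoters carried H3K27ac in all 3 HH libraries, of 1595, 2137 and 2037 bp at Atp5mpl, 647, 1285 and 1636 bp at Atp5o and 1292, 1851 and 1462 bp at Ndufb8. In the 25-week cohort they were without a peak only in CCC replicate 3. H3K4me3 was still called at Atp5mpl in H (940, 1295 and 638 bp, against 1754, 2833 and 1447 bp in C), at Atp5o in all 3 H libraries and at Ndufb8 in 2 of 3. The number of members with H3K27ac was lower in every H library (47 to 62) than in the C libraries (66 to 70), and that of all promoters was 4538 to 8541 in H and 7996 to 8506 in C. H3K27ac was gained or lost at 0 members in HC against CC_s (1.48% of all promoters), HH against CC_l (1.37%) and HHC against CCC (3.85%). Between controls of different age, a contrast added after the data were seen, it was lost at Cox6a1 and Ndufa9 in CC_s against C (2 of 74 members, 1.96% of all promoters) and at Ndufa4l2 in CCC against CC_l (1 of 77, 1.54%). These controls also differed in the chow given last, so age and chow cannot be told apart.

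H3K4me1 was gained at 4 members in HH and at 5 in HHC. In HH against CC_l, 4 of 68 members gained it, beside 3.57% of all promoters, and 1 lost it, beside 1.26%. Ndufa10, an accessory subunit of complex I, had peaks of 1196, 1346 and 1018 bp in HH and none in CC_l. Atp5g1 had 1047, 1115 and 4717 bp in HH, Atp5s (coupling factor B) 2470, 1849 and 1804 bp, and Uqcrc2, a core protein of complex III, 1794, 1819 and 2874 bp, all with none in CC_l. Ndufb8 was marked in CC_l (4676 and 4437 bp) and not in HH. Of these, Uqcrc2 was also marked in both CCC libraries (2962 and 3170 bp), and Ndufb8 in both CCC (4975 and 5980 bp) and 2 of 3 HHC libraries (6181 and 3071 bp). At Uqcrc2 CCC thus differed from CC_l, whereas Ndufb8 was marked in both control groups.

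In HHC against CCC, 5 of 70 members gained H3K4me1, beside 6.45% of all promoters, which is a similar share. Atp5s had 1991, 3101 and 3799 bp in HHC and no peak in CCC, and it was the only member gained in both comparisons of the 25-week cohort. Ndufa2 had 1824, 2033 and 1993 bp in HHC, Cox6a1, the ubiquitous counterpart of Cox6a2, 1367, 862 and 2592 bp, and the complex I subunits Ndufa9 and Ndufc2 had 2056, 2956 and 2175 bp and 3196, 2416 and 2960 bp, with no peak in CCC. Ndufa2, Cox6a1 and Ndufc2 were marked in CC_l replicate 2, and Ndufc2 in all 3 HH libraries. In the 12-week cohort, where few members carried H3K4me1, 0 were called in H against C (3.26% of all promoters) and 0 in HC against CC_s (1.03%). Between controls, 0 were called in CC_s against C (0.550%) and Ndufb2 and Uqcrc2 were gained in CCC against CC_l (2 of 62, 6.18%).

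H3K27me3 was gained at 2 members in HHC, Cox4i2 and Cox6a2, both of restricted expression. They were 2 of 9 members marked in HHC or CCC, beside 3.65% of all promoters. Cox4i2 had peaks of 4288, 1911 and 1634 bp in HHC and none in CCC, and it was also marked in both HH libraries (1070 and 1374 bp), 1 of 2 CC_l (1221 bp) and 1 of 2 H libraries (945 bp). Cox6a2 had 924, 1625 and 2126 bp in HHC and none in CCC, but also 1374 and 835 bp in 2 of 3 C libraries and 828 bp in 1 of 2 HH libraries (replicate 3). Neither pattern held with a promoter window of 500 bp, where 0 members were called. In H against C (11% of all promoters), HC against CC_s (3.34%) and HH against CC_l (5.52%) 0 members were called.

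Width was tested across all promoters marked in every library of a mark, with limma on log2 width after subtraction of the library median, in a fit of all 8 groups. No member passed an adjusted p of 0.05 in any comparison, for H3K4me3 (68 members of 8575 promoters) or H3K27ac (26 of 1894). All promoters called were 1.35% for H3K4me3 in H against C (116), 0.117% in HC against CC_s, and 0 in HH against CC_l and in HHC against CCC. For H3K27ac they were 2.85% in H against C, 0 in HC against CC_s and in HH against CC_l, and 0.0528% in HHC against CCC. At an unadjusted p of 0.05, H3K4me3 width passed at 4, 8, 1 and 1 of the 68 members in these comparisons in turn, and H3K27ac width at 1, 2, 1 and 1 of 26. Of all promoters, 16.5%, 9.83%, 2.69% and 6.26% passed it for H3K4me3 and 19.5%, 9.71%, 2.85% and 8.03% for H3K27ac. The members' own shares were 5.88%, 11.8%, 1.47% and 1.47% for H3K4me3 and 3.85%, 7.69%, 3.85% and 3.85% for H3K27ac, near or below this background. The same fit averaged over cohorts also called 0 members, for obesity (0.0466% of all promoters for H3K4me3 and 0.106% for H3K27ac) and for weight loss (0.0466% and 0.0528%).

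For H3K4me3, the members' median difference in width between a diet group and its control lay slightly below that of all promoters. Their median log2 difference in H3K4me3 width was -0.09 in H, -0.08 in HC, -0.10 in HH and -0.12 in HHC against their controls, with 40, 43, 47 and 48 of 68 genes below 0. The medians of all promoters were between -0.03 and 0. With 1 library left out at a time they ranged from -0.13 to -0.06 in H, from -0.14 to -0.10 in HH and from -0.15 to -0.09 in HHC, but from -0.13 to 0.00 in HC, where the direction was lost without CC_s replicate 2. With the treatment field in place of titles the median for HH against CC_l turned to 0.07 and that for HHC against CCC became -0.04. The median difference in H3K27ac width was 0.00 in H, -0.09 in HC, -0.10 in HH and -0.39 in HHC, and these values depended on single libraries. That of HC turned to 0.13 without HC replicate 1 and 0.02 without CC_s replicate 2, and that of HH to 0.02 without HH replicate 3. That of HHC was -0.13 without CCC replicate 3, the library that stood apart, and -0.63 without CCC replicate 1, and it turned to 0.37 when the library median was not subtracted.

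**Figure D3:**
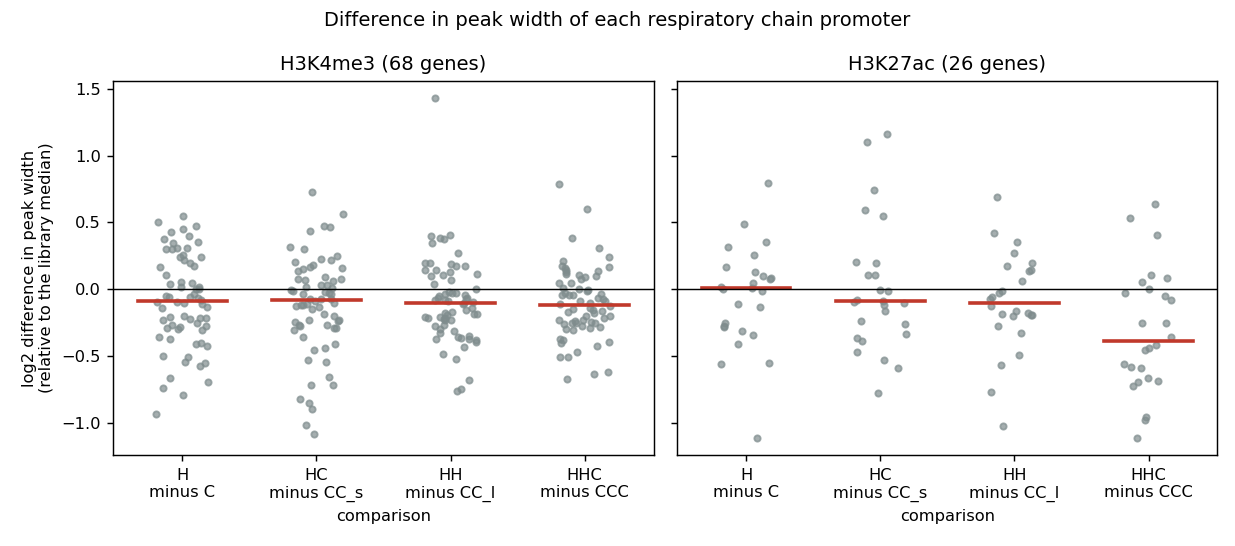
Difference in peak width between a diet group and its control (log2, relative to the library median, vertical axis) for each respiratory chain gene (grey points) in the 4 comparisons, with the median in red, for H3K4me3 (68 genes) and H3K27ac (26 genes). The H3K4me3 medians lie between -0.12 and -0.08, and 0 genes passed the test.

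Taken per library, the ratio of members to all marked promoters in H3K4me3 width was 1.16 ± 0.00860 in C and 1.07 ± 0.0490 in H (SD, n = 3 each), and the groups did not overlap. It was 1.19 ± 0.0944 in CC_s and 1.11 ± 0.0570 in HC (n = 3 each), which overlapped, 1.11 ± 0.0650 in CC_l and 1.06 ± 0.00860 in HH (n = 2 each), which did not, and 1.11 ± 0.0101 in CCC (n = 2) and 1.04 ± 0.0702 in HHC (n = 3), which overlapped. For H3K27ac, C libraries ranged from 0.998 to 1.05 and H libraries from 0.887 to 0.941, CC_s from 1.01 to 1.03 and HC from 0.955 to 1.00, and CC_l from 0.964 to 0.972 and HH from 0.876 to 0.959, each without overlap, while CCC (0.954 to 1.04) and HHC (0.854 to 0.958) overlapped. The gaps without overlap were narrow for HH in both marks and for HC in H3K27ac. For H3K4me3 the nearest libraries were at 1.064 in HH and 1.068 in CC_l. With 1 library left out, that difference between HH and CC_l ranged from -0.102 to -0.0101. The treatment field names other groups for both of these HH libraries and for CC_l replicate 2. By titles, the diet group had the lower mean in each of the 8 comparisons. The ratio was taken over the promoters marked in each library, and this set differed between libraries, so it can change without a change in width. At members marked in every library, the median log2 width difference in H against C was 0.00 for H3K27ac (13 of 26 below 0). It was -0.09 for H3K4me3 (40 of 68) and below 0 in the other comparisons of both marks. A ratio within a library shows unequal width and not which promoters moved, and the macrophage markers given above also differed between these groups.

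**Figure D4:**
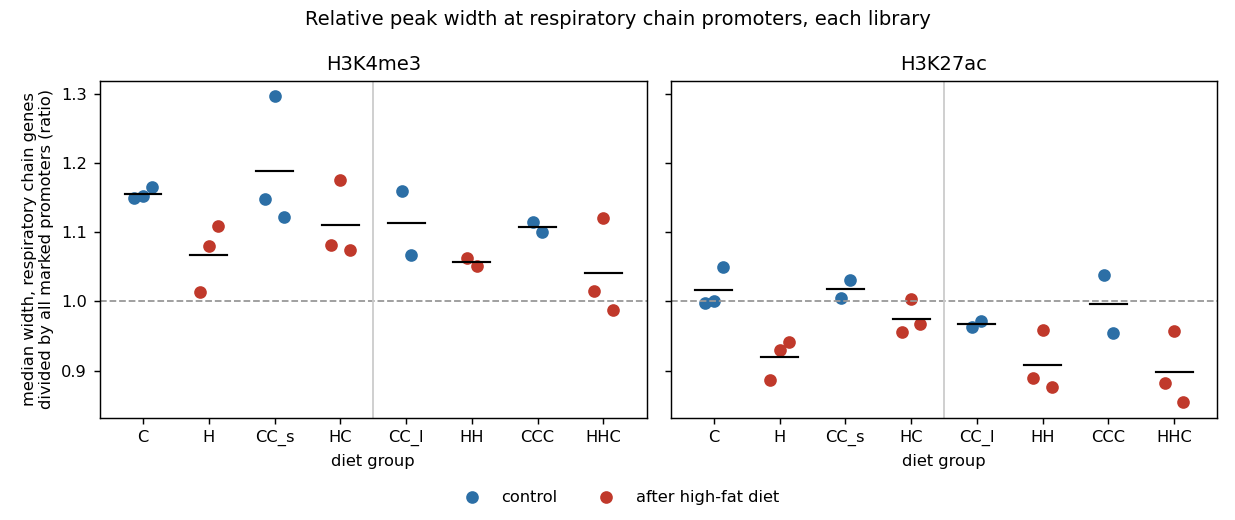
Median peak width of the respiratory chain genes divided by that of all marked promoters (ratio, vertical axis) in each library (points, blue for controls and red for groups after high-fat diet) with group means as lines, for H3K4me3 and H3K27ac. Each red group has a lower mean than its control, with differences of -0.0878 to -0.0561 for H3K4me3 and of -0.0985 to -0.0429 for H3K27ac.

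The largest single differences in H3K4me3 width did not pass the test. In H against C they were Cox4i1 at -0.93 (SE 0.465, limma adjusted p = 0.313) and Ndufa11 at 0.55 (SE 0.255, adjusted p = 0.283). In HC against CC_s the largest fall was that of Cox6b1, at -1.09 (SE 0.360, limma adjusted p = 0.306). In HH against CC_l, Atp5j was at -0.76 and Atp5d, the delta subunit of the central stalk, at 1.43 (SE 0.387 and 0.462, adjusted p = 1.0 for both). Atp5d had peaks of 10732 and 15054 bp in HH and of 3564 and 3972 bp in CC_l, but of 12660 bp in CCC replicate 3, one of the libraries whose treatment field names HH. In HHC against CCC they were Ndufb4 at -0.67 (SE 0.406, limma adjusted p = 0.982) and Ndufs8, an iron-sulfur subunit of complex I, at 0.79 (SE 0.283, adjusted p = 0.516).

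Subtraction of the library median decided what could be called in H. H3K4me3 peaks were generally narrower in H than in C, with a median shift of -0.85 on the log2 scale over 8575 promoters, and H3K27ac peaks likewise, with -1.59 over 1894. Without the subtraction 30 of 68 members were called narrower for H3K4me3, beside 32.3% of all promoters, and 24 of 26 for H3K27ac, beside 76.6%. Member medians were then -0.93 and -1.57, close to those of all promoters. Coverage was not scaled between libraries, and depth is unknown, so this shift cannot be told apart from a difference in depth.

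Peak height gave a single call, Ndufa5 in H. Height was the highest coverage of a peak at the promoter. Heights per library are given relative to the median over all marked promoters of that library. The test instead subtracted the median over promoters marked in every library. Its log2 differences therefore depart from those of the listed heights, and at Ndufa5 in H against C they are smaller in size. Ndufa5 is an accessory subunit of complex I (chr6:24518666-24528013, minus strand, with a TSS 131 bp from that of Asb15 on the other strand). Its H3K4me3 height was 2.81, 3.25 and 3.26 times the median of marked promoters in C and 1.52, 1.47 and 1.12 times in H. All H libraries were below all C libraries and below every one of the other 15. The log2 difference was -1.01 (SE 0.197, limma adjusted p = 0.0123), and Ndufa5 was 1 of 68 members called, beside 0.805% of all promoters (69). The unscaled coverage was 289, 400 and 486 in C and 67, 173 and 122 in H. The call held without the third H replicate, at -0.95 (adjusted p = 0.0484), and was lost without C replicate 2 (-0.99, adjusted p = 0.084) or C replicate 3 (-0.97, adjusted p = 0.0537).

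After weight loss the height of Ndufa5 was 2.04, 2.28 and 2.11 in HC and 2.34, 1.84 and 2.29 in CC_s, which overlapped. In the 25-week cohort it was 2.74 and 2.3 in HH against 2.65 and 2.75 in CC_l, and 2.63, 2.48 and 2.3 in HHC against 2.41 and 2.99 in CCC. The log2 differences there were -0.05, -0.09 and -0.12. H3K27ac height at Ndufa5 was 0.938, 1.48 and 0.804 in H and 1.86, 2.31 and 2.44 in C, again without overlap, with a difference of -0.79 (SE 0.281, limma adjusted p = 0.158) that did not pass. Its width did not follow, with a log2 difference of 0.10 (SE 0.319, adjusted p = 0.912) for H3K4me3. Of the other complex I genes, 0 were called for height. Less mark per nucleus and fewer marked nuclei cannot be told apart, and neither can Ndufa5 and Asb15.

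**Figure D5:**
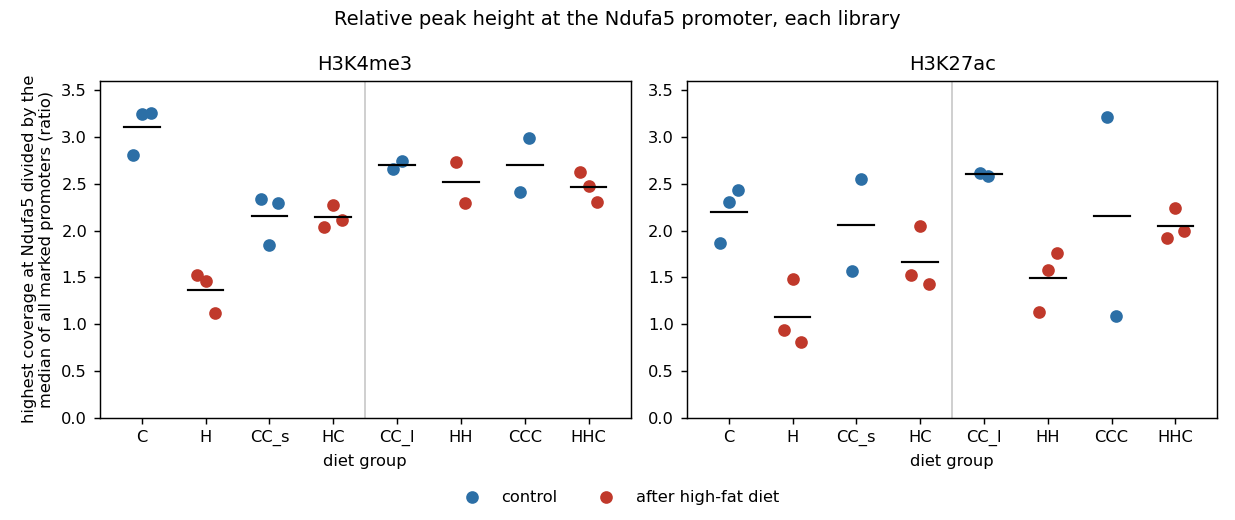
Highest coverage of the peak at the Ndufa5 promoter divided by the median over all marked promoters of the library (vertical axis) in each library (points, blue for controls and red for groups after high-fat diet) with group means as lines, for H3K4me3 and H3K27ac. The 3 H libraries lie between 1.12 and 1.52 for H3K4me3, under the 3 C libraries at 2.81 to 3.26.

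For the other height comparisons 0 members were called. H3K4me3 height called 0.152% of all promoters in HC against CC_s and 0 in HH against CC_l and in HHC against CCC, and H3K27ac height called 0.264% in H against C, 0 in HC against CC_s and in HH against CC_l, and 0.0528% in HHC against CCC. Averaged over cohorts, the calls were 0.175% for obesity and 0.152% for weight loss for H3K4me3, and 0.475% and 0 for H3K27ac, with 0 members in each. The median H3K4me3 height of the members was -0.15 in H against C, with 49 of 68 genes below 0, and -0.02, 0.01 and 0.00 in the other comparisons. A difference between cohorts was tested as an interaction, and it was called at 0 members and at 0 of all promoters for either mark and measure.

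Genes that build or regulate the chain were marked by H3K4me3 in a similar way. H3K4me3 was present in every library at 34 of 39 assembly factors, 14 of 15 regulators, 10 of 13 citric acid cycle genes and 73 of 80 ribosomal protein genes. The regulator outside this count was Esrrg, an orphan nuclear receptor, with H3K4me3 in 13 of 21 and H3K27me3 in 20 of 20 libraries. H3K27ac was present in every library at 26 of 81 members, 7 of 39 assembly factors, 2 of 15 regulators, 3 of 13 citric acid cycle genes and 18 of 80 ribosomal protein genes. At least 1 library had H3K27me3 at 10 members, 8 assembly factors, 5 regulators, 1 citric acid cycle gene and 14 ribosomal protein genes. Among the regulators were Esrra and Ppargc1b, in 5 of 20 libraries each. In H against C, Cox14, an assembly factor of complex IV, passed for H3K4me3 width at -2.02 (SE 0.482, limma adjusted p = 0.0344), as 1 of 34 assembly factors tested. Polrmt, the mitochondrial RNA polymerase, passed for height at 1.36 (SE 0.302, adjusted p = 0.0242), as 1 of 14 regulators, and Rpl17 for width at -1.17 (SE 0.287, adjusted p = 0.0411), as 1 of 73 ribosomal protein genes. No citric acid cycle gene passed. By the presence of peaks, few genes of these lists were gained or lost, and each count is given of the list's genes marked in either group, beside the share of all promoters called. Esrrg lost H3K4me3 in H (1 of 15 regulators, 2.70%). H3K27ac was lost in H at Idh3b (1 of 13 citric acid cycle genes) and at Rps7 and Rps4x (2 of 77 ribosomal protein genes, 3.94%), in HC at Rpl14 (1 of 77, 1.48%) and in HH at Polrmt (1 of 14 regulators, 1.37%). In HHC it was gained at Ttc19 (1 of 39 assembly factors) and Gabpb1 (1 of 15 regulators, 3.85%). For H3K4me1 in H, Ppargc1a, the coactivator of mitochondrial biogenesis, lost the mark and Tfb2m gained it (of 7 regulators, 3.26%). Sco2, Ndufaf6 and Ndufaf3 gained it in HH (3 of 29 assembly factors, 3.57%). In HHC, Sdhaf2 and Ecsit (2 of 35 assembly factors), Tfam and Gabpb1 (2 of 13 regulators) and 6 of 74 ribosomal protein genes gained it, Rps15, Rps10, Rpl17, Rpl7a and Rpl6 among them (6.45%). H3K27me3 was called at few of these genes, and it was gained in H at Rps26 (1 of 2 ribosomal protein genes, 11%), gained in HH at Esrra (1 of 4 regulators) and lost there at Taco1 (1 of 2 assembly factors, 5.52%), and lost in HHC at Ndufaf4 (1 of 5 assembly factors, beside 160 of 8192 promoters of all genes).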

How the data were processed

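CUT&Tag libraries of 4 histone marks were analysed as peak lists, 84 in all. Per the labels and the study's methods, the authors trimmed reads (Trim Galore 0.6.6), aligned them to GRCm38 (Bowtie2 2.4.4, SAMtools 1.13), made coverage tracks (bedtools 2.30) and called peaks in each library with SEACR 1.3, stringent, threshold 0.01, without pooling. Tool versions are from the submitters' processing notes. The deposited values are unscaled signal, the coverage summed over a peak and its highest coverage, whole numbers in 84 of 84 lists. Depth is therefore unknown, precision rests on the number of libraries, and only values relative to the library were compared. Duplicates were marked, and their removal is not stated. Per the methods, the authors took out peaks in blacklisted regions. A mitochondrial peak stood in 84 of 84 lists, and the lists were not compared with a blacklist.

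Promoters were 2000 bp either side of 41438 TSSs of 21851 protein-coding genes (GENCODE release M21, basic), with at least 1 bp of overlap. Width was that of the widest peak, and height the highest coverage. Both were fitted on the log2 scale, without a pseudocount, by limma 3.58.1 (R 4.3.3), with Benjamini-Hochberg adjustment over all promoters marked in every library of a mark and a threshold of 0.05. The test was tried on simulated data. Tables and figures used Python 3.11.15, NumPy 2.4.6, pandas 2.3.3 and Matplotlib 3.10.9. Groups were taken from titles. The study's count test was not run, because peak lists hold no read counts. H3K4me1 width and height were not reported, since 0 members carried that mark in every library.

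Members, lists and tests were chosen with earlier results of these data known. The genes named were those gained or lost, those past the threshold, those without H3K4me3 in most libraries, those with H3K27me3 in the most libraries (at most 10), the widest and narrowest of each complex, the tissue-restricted ones, the largest rise and fall in width per comparison, and up to 8 printed promoters. Not every gene so selected is reported here. Replicates are described as biological. Alternatives were the promoter window, equal numbers of peaks per library, a stricter threshold, a peak over the TSS, summed width, no or quantile scaling, the treatment field, 2 groups only, the replicate block and leaving out each library.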

Additional observations from a re-analysis of the deposited data

How the results depend on the processing

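Of 180 alternative values without a left-out library, 155 were labelled the same and 25 were not. A count was the same within a fixed factor, and a share or ratio when it moved by less than its SD between libraries. A median width difference was the same when it moved by less than the median SE of the members, whatever its sign. Ndufa5 height was the same when it stayed negative and passed the threshold. The values include members called for H3K4me1 width and height, where 0 members were tested as reported, so agreement there carries no weight. Members gained or lost over the 4 comparisons were 0 for H3K4me3 and became 2 with equal numbers of peaks, 1 with a stricter threshold and 1 when the peak had to cover a TSS. For H3K27ac the 3 became 1, 5 and 5 under these settings, and for H3K27me3 the 2 became 1, 1 and 0, and 0 with a window of 500 bp. Without the library median, members called for width rose from 0 to 30 for H3K4me3 and 24 for H3K27ac, those for H3K4me3 height fell from 1 to 0, the median width difference in H against C became -0.93 for H3K4me3 and -1.57 for H3K27ac, that of H3K27ac became -0.83 in HC and 0.37 in HHC, and Ndufa5 was at -1.77 (adjusted p = 0.717). Its adjusted p was 0.0123 to 0.0352 under the other settings. The share of members marked became 90.2% and 88.7% for H3K4me3 and 59.5% and 63.1% for H3K27ac with equal numbers of peaks and a stricter threshold, and the mean H3K4me3 width ratio 1.01 and 1.02. With summed width the ratio in H minus C was -0.13. The cause of these moves was not tested, beyond the shared shift that the library median removes.

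With 1 library left out at a time, members gained or lost were 0 to 1 for H3K4me3, 3 to 31 for H3K27ac, 10 to 22 for H3K4me1 and 2 to 5 for H3K27me3. The highest H3K27ac count came without CCC replicate 1, which leaves replicate 3 alone, followed by 7 without H replicate 1, 6 without HC replicate 1 or CC_s replicate 2, and 5 without HH replicate 1, CC_s replicate 1, H replicate 2 or HC replicate 3. H3K4me1 gave 22 without CCC replicate 3 and 18 without CC_l replicate 2, and H3K27me3 gave 5 without CC_l replicate 1 and 4 without HH replicate 2 or H replicate 1. Members called for H3K4me3 width were 0 to 1 (1 without H replicate 3), for H3K4me3 height 0 to 2 (0 without C replicate 2 or 3, 2 without HC replicate 1 or 2) and for H3K27ac height 0 to 1 (1 without CCC replicate 1). A library left alone in its group was assumed to vary like the other groups.

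Groups share replicate numbers, but the labels do not say that a number marks a shared animal or day. Deviations of same-numbered libraries in width correlated at -0.055 to 0.028 for H3K4me3 (0 of 9 pairs above 0.1), -0.037 to 0.156 for H3K27ac (2 of 9) and -0.267 to 0.262 for H3K4me1 (3 of 10). With a replicate block 0 members were called for width and 1 for H3K4me3 height (Ndufa5, adjusted p = 0.0166), and no call changed. No paired analysis was possible for gained and lost peaks because they come from no test.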
